A study of Mus musculus with 34 samples.

Results

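Cortical astrocytes of male mice aged 18 months (18m, 4 libraries) were compared with those of young adults at postnatal day 60 (P60, 3 libraries), 7 of the 34 libraries of a series that runs over 9 ages from postnatal day 7 (P7). The members were chosen by age label alone, and all genes were compared. The question was how far the oldest astrocytes differ from mature young adult ones that have left proliferation. All animals were wild type (WT), no agent or allele distinguishes the ages, and cells were taken from cortex by magnetic isolation, so that each library also holds RNA of any other cell carried along. The labels do not say whether a library came from a single mouse or from pooled mice, so every p-value here measures only the spread between these libraries. Polyadenylated RNA was copied with a low-input template-switching kit and sequenced. Values are TPM, the transcript share of each gene in a library scaled to a fixed sum, and they keep no record of depth.

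Astrocytes clear glutamate and potassium released by neurons, pass metabolic fuel to them, secrete factors that build and tune synapses, and wrap blood vessels with water-channel-rich endfeet. In response to injury or disease they become reactive, which classically includes more of the intermediate filament GFAP and of complement and antigen-presentation genes. In ageing brains, reactive and inflammatory transcripts, loss of transport functions and shifts in lipid metabolism are the changes most often looked for.

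Genes that fell at 18m included Thbs4, a synapse-promoting matrix protein, the clock output factor Hlf and the glutamate transporter Slc1a2, although the call of Slc1a2 was lost in several alternative fits. Genes that rose included the lactate dehydrogenase Ldha, the actin regulator Pfn1 and the transcription factors Olig1 and Olig2. Classical reactive, complement, class I antigen-presentation, interferon-stimulated and cell cycle genes were not called. Of 14590 genes tested, 529 were higher at 18m (3.63%) and 1481 were lower (10.2%), so that 13.8% were called in all, by limma at an adjusted p under 0.05 over all genes. The median log2 fold change, 18m minus P60 on log2(TPM + 1), was -0.09. These shares are the background against which each gene group below is read, although the shares differ with expression level, as given next. The words rose and fell refer to 18m relative to P60 and to called genes only. Because RNA was measured in bulk, fewer cells of a type and less RNA per cell cannot be told apart.

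The direction of the calls varied with expression level. Among 2343 genes with a mean under 2 TPM, 19.3% fell and 0.341% rose, whereas among 1642 genes with a mean over 100 TPM, 4.51% fell and 11.8% rose. Libraries of 18m listed 4109 to 4654 genes at 0 TPM, and those of P60 listed 2854 to 3130. Genes of odour, vomeronasal and taste receptors, called chemoreceptors here, together reached 40.9 to 66.4 TPM at 18m and 186 to 339.6 TPM at P60. When the count of genes at 0 was added to the model as a covariate, 416 genes rose and 611 fell. The number of genes at 0 separated the ages completely, its part in the calls was not tested beyond that covariate, and it limits above all the statements on genes of low level. The labels give no processing batch, so age and any difference in preparation or processing between the ages cannot be told apart.

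18m replicate 1 stood apart. It held the fewest transcripts of neurons and of myelin and the most of endothelium among the 4 libraries of 18m. Without it, 422 genes rose (2.89%) and 634 fell (4.35%). Correlations across genes were 0.973 to 0.991 between 18m libraries, 0.981 to 0.984 between P60 libraries and 0.941 to 0.98 between ages. Neuronal and myelin transcripts also differed between the ages, as described below, and with terms for both of them in the model 119 genes rose (0.816%) and 912 fell (6.25%). Rescaling by median of ratios gave 1022 higher and 1604 lower, so that 38.9% of calls were higher, against 26.3% without it, and quantile normalization gave 52.4%. Quantile normalization moved the median of all genes to 0.04.

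The main glutamate transporter gene fell at 18m. Slc1a2 encodes GLT-1, which takes up most glutamate in the adult cortex (chromosome 2, 102658659 to 102790784, GRCm38), and it had 223, 246, 215 and 259 TPM at 18m, against 429, 364 and 404 TPM at P60. All 4 libraries of 18m lay below all 3 of P60, with a ratio of the means of 0.59 (log2 change -0.76 ± 0.23 SE with adjusted p = 0.0277 by limma). Slc1a3, which encodes the second astrocyte glutamate transporter GLAST, averaged 2386 ± 358 TPM at 18m and 2457 ± 64.3 TPM at P60 (SD, n = 4 and n = 3) and was not called (95% interval of the log2 fold change -0.34 to 0.23). Glul, which encodes glutamine synthetase, averaged 2205 ± 523 TPM at 18m and 2614 ± 156 TPM at P60 (SD, n = 4 and n = 3) and was not called either (-0.67 to 0.12). Of 21 tested genes for the handling of glutamate, GABA and glutamine, 4 fell (19%) and 2 rose (9.52%), with a median of -0.18. Over all genes 10.2% fell and 3.63% rose.

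Genes for the breakdown of transmitters were among those that fell. Maob encodes monoamine oxidase B, an outer mitochondrial membrane enzyme of astrocytes, and had 33.9, 46.6, 74.7 and 63.1 TPM at 18m, against 137, 129.7 and 127 TPM at P60. Every 18m library was below every P60 library (log2 change -1.31 ± 0.33 SE with adjusted p = 0.0108 by limma). Abat, the GABA transaminase, averaged 71.9 ± 14.7 TPM at 18m and 104 ± 7.19 TPM at P60 (SD, n = 4 and n = 3) (log2 change -0.55 ± 0.15 SE with adjusted p = 0.0194 by limma). Slc38a5, a glutamine transporter that is also found in brain endothelium, rose, with 121, 34.7, 26.9 and 16.2 TPM at 18m, against 8.13, 7.59 and 11.1 TPM at P60. Its highest value was in 18m replicate 1, and its change was not called without that library (log2 fold change 1.39 with adjusted p = 0.174).

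Ion handling genes were mostly not called. Atp1b2, a beta subunit of the sodium pump, averaged 397 ± 95.1 TPM at 18m and 546 ± 23.9 TPM at P60 (SD, n = 4 and n = 3), without overlap but not called (log2 change -0.49 ± 0.18 SE with adjusted p = 0.0594 by limma). Fxyd7, a small regulator of the pump, averaged 19.6 ± 4.57 TPM at 18m and 38.8 ± 6.12 TPM at P60 (SD, n = 4 and n = 3) and fell (log2 change -0.97 ± 0.26 SE with adjusted p = 0.014 by limma). Of 18 genes for potassium, sodium and bicarbonate handling 2 fell, Fxyd7 among them (11.1%, against 10.2% of all genes), and none rose. Their list mean was 6.22 to 6.71 at 18m and 6.73 to 6.85 at P60 in log2(TPM + 1). Among all genes with a mean of 20 to 100 TPM 6.12% fell, and among those over 100 TPM 4.51% fell. The potassium channel gene Kcnj10 averaged 14.98 ± 3.0 TPM at 18m and 15.9 ± 2.32 TPM at P60 (SD, n = 4 and n = 3) and was not called (-0.45 to 0.27).

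With the neuronal and myelin terms Slc1a2 had a log2 fold change of -0.33 with adjusted p = 0.415, Fxyd7 of -0.17 with adjusted p = 0.565, Maob of -0.87 with adjusted p = 0.143 and Abat of -0.26 with adjusted p = 0.289, so that none of these was called. Without 18m replicate 1 the values were -0.73 with adjusted p = 0.0674 for Slc1a2, -0.81 with adjusted p = 0.0612 for Fxyd7, -1.11 with adjusted p = 0.0489 for Maob and -0.38 with adjusted p = 0.0971 for Abat, so that Maob alone of these 4 was still called there. The part of other cells in these changes was not tested beyond these terms.

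Other defining astrocyte genes were not called. Aqp4, the water channel of endfeet, had 278, 377, 504 and 368 TPM at 18m, against 361, 409.8 and 377 TPM at P60, with overlapping values (95% interval -0.41 to 0.34). Aldoc, an astrocyte-enriched aldolase, averaged 10493 ± 3128 TPM at 18m and 11916 ± 469 TPM at P60 (SD, n = 4 and n = 3). Gja1, which encodes the gap junction protein connexin 43, averaged 1432 ± 330.0 TPM at 18m and 1989 ± 192 TPM at P60 (SD, n = 4 and n = 3) and was not called (log2 change -0.50 ± 0.18 SE with adjusted p = 0.0678 by limma). Apoe, the main lipoprotein of astrocytes, averaged 52266 ± 1773 TPM at 18m and 58716 ± 9514 TPM at P60 (SD, n = 4 and n = 3). Of 22 mature astrocyte markers, 2 fell, Slc1a2 among them, and none rose. The share that fell was 9.09%, against 10.2% of all genes and 4.51% of those with a mean over 100 TPM. In all, 20 of the markers had a negative fold change, with a median of -0.19 against -0.09 over all genes. The label astrocyte fits these levels, with Apoe, Aldoc, Glul and Slc1a3 among the most abundant named genes at both ages.

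**Figure D1:**
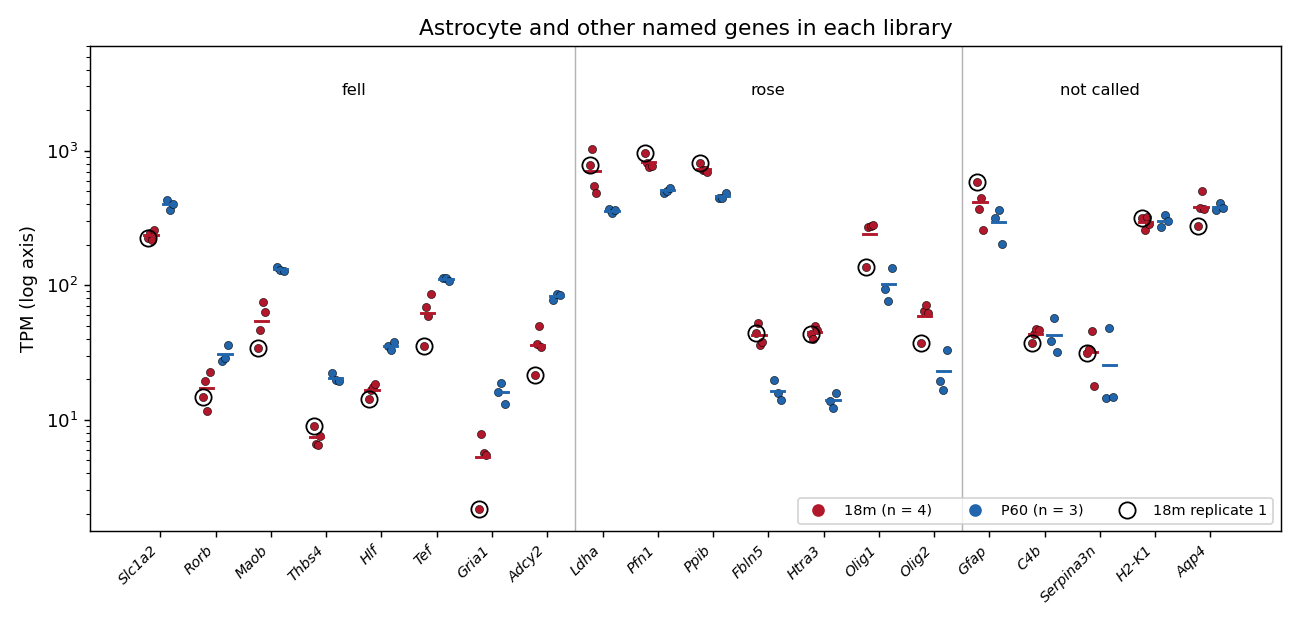
TPM on a log axis of 20 named genes in each library of 18m (red) and P60 (blue). Points are libraries, short lines are means, and open circles mark 18m replicate 1. The first 8 genes fell, the next 7 rose and the last 5 were not called. In Slc1a2 and Thbs4 the 18m libraries lie close together below P60, while in Gfap and Serpina3n the ages overlap.

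Among secreted synapse regulators the largest fall was that of Thbs4, which encodes thrombospondin 4, a matrix protein that promotes synapse formation (chromosome 13, 92751590 to 92794818). It had 9.05, 6.58, 6.51 and 7.59 TPM at 18m, against 22.4, 19.9 and 19.4 TPM at P60. The highest 18m value was below the lowest P60 value by more than the range within either age (0.361 as the ratio of means, log2 change -1.36 ± 0.23 SE with adjusted p = 0.000678 by limma). The fall was called with the neuronal and myelin terms (-1.25 with adjusted p = 0.00757) and without 18m replicate 1 (-1.45 with adjusted p = 0.00186). Nptx1, a neuronal pentraxin that clusters glutamate receptors, fell at low level (0.553 ± 0.253 TPM at 18m and 2.44 ± 0.735 TPM at P60, SD, n = 4 and n = 3), and Nell2 fell too. With the neuronal and myelin terms Nptx1 was not called (-0.22 with adjusted p = 0.505). Higher at 18m were Ptn, the growth factor pleiotrophin, with 4833, 3114, 5644 and 3189 TPM at 18m, against 1824, 3218 and 2079 TPM at P60, and Sparc, a matrix protein that restrains synapse formation, with 1952, 2268, 2019 and 1262 TPM at 18m, against 1204, 1423 and 1005 TPM at P60. Both rose (log2 change 0.82 ± 0.24 SE with adjusted p = 0.0267 by limma for Ptn and log2 change 0.61 ± 0.18 SE with adjusted p = 0.0274 by limma for Sparc), although 1 or more libraries overlapped between the ages, and neither was called without 18m replicate 1. Sparcl1, or hevin, averaged 4045 ± 426 TPM at 18m and 4565 ± 343 TPM at P60 (SD, n = 4 and n = 3) and was not called. Of 20 tested regulators, 3 fell (15%) and 2 rose (10%), against 10.2% and 3.63% of all genes.

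Among receptors the largest fall was that of Gria1. Gria1, an AMPA-type glutamate receptor subunit found in neurons and in astrocytes (chromosome 11, 57011387 to 57330244), had 2.19, 7.82, 5.63 and 5.44 TPM at 18m, against 16.1, 18.9 and 13.1 TPM at P60. It fell without overlap (log2 change -1.52 ± 0.27 SE with adjusted p = 0.000895 by limma), and stayed called with the neuronal and myelin terms (-1.26 with adjusted p = 0.0194) and without 18m replicate 1 (-1.22 with adjusted p = 0.00459). Adra1a, an alpha-1 adrenergic receptor through which noradrenaline reaches astrocytes, fell at low levels (3.55 ± 2.07 TPM at 18m and 6.64 ± 2.5 TPM at P60, SD, n = 4 and n = 3). Adora2a, an adenosine receptor gene, rose, with 13.2, 10.9, 6.15 and 9.34 TPM at 18m, against 4.0, 4.97 and 6.25 TPM at P60. In both of these receptors the ages overlapped. Over the 22 receptor genes tested, 2 fell (9.09%) and 1 rose (4.55%), shares near the background of 10.2% and 3.63%. Without 18m replicate 1, Adra1a (-0.50 with adjusted p = 0.161) and Adora2a (0.68 with adjusted p = 0.0769) were not called.

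The circadian clock is a feedback loop in which CLOCK and BMAL1 activate genes through the E-box sequence CACGTG, and PER, CRY, NR1D and BHLHE proteins repress. The factors HLF, TEF and DBP carry its rhythm to output genes by binding D-boxes. Of 19 clock genes tested, 5 fell (26.3%, against 10.2% of all genes), none rose and 18 had a negative fold change, with a median of -0.42. The time of day of dissection is not given in the labels.

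Hlf, the output factor with the largest fall (chromosome 11, 90336536 to 90390895), had 14.3, 16.7, 17.6 and 18.5 TPM at 18m, against 35.6, 33.2 and 38.2 TPM at P60. The ages were far apart, with a narrow range within each (log2 change -1.05 ± 0.19 SE with adjusted p = 0.00115 by limma). Tef, a close relative (chromosome 15, 81802421 to 81826863), had 35.6, 68.4, 59.5 and 85.6 TPM at 18m, against 114, 113 and 108 TPM at P60, also without overlap (log2 change -0.90 ± 0.18 SE with adjusted p = 0.00288 by limma). Nr1d2, which encodes the repressor REV-ERB beta, had 28.4, 35.6, 60.5 and 43.3 TPM at 18m, against 68.2, 72.9 and 70.8 TPM at P60, and 18m replicate 3 came nearest to P60 (log2 change -0.79 ± 0.23 SE with adjusted p = 0.0231 by limma). Bhlhe41, a repressor that competes for E-boxes, averaged 3.85 ± 1.49 TPM at 18m and 7.23 ± 0.989 TPM at P60 (SD, n = 4 and n = 3), and Rora, an activator of BMAL1, averaged 45.5 ± 12.7 TPM at 18m and 68.7 ± 4.93 TPM at P60 (SD, n = 4 and n = 3). Both fell (log2 change -0.80 ± 0.24 SE with adjusted p = 0.0248 by limma for Bhlhe41 and log2 change -0.63 ± 0.20 SE with adjusted p = 0.0388 by limma for Rora). With the neuronal and myelin terms 5 clock genes were again called lower. Without 18m replicate 1, 2 were, Hlf (-0.98 with adjusted p = 0.0059) and Tef (-0.66 with adjusted p = 0.0111), and without P60 replicate 1 also 2. With the libraries of the 2 ages alone, 1 was.

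The promoters of 2 of the fallen genes are shown because they hold the E-box, the letters CACGTG, which reads the same on both strands and is in capitals. Each is the 250 bases before a RefSeq start, 5′ to 3′ on the gene's strand (GRCm38.p6). Tef has a window at each of 2 starts, both with 1 E-box, and the one shown is chr15:81802423-81802672 on the plus strand. The Bhlhe41 window is chr6:145865421-145865670 on the minus strand. GENCODE places the 5′ end of both genes upstream of these RefSeq starts, so that its gene interval covers the Tef window and part of the Bhlhe41 window.
Tef: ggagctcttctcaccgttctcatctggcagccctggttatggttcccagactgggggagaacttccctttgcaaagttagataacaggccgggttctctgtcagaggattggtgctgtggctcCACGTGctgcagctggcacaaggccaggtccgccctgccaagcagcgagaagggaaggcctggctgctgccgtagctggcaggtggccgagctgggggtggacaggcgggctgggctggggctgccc
Bhlhe41: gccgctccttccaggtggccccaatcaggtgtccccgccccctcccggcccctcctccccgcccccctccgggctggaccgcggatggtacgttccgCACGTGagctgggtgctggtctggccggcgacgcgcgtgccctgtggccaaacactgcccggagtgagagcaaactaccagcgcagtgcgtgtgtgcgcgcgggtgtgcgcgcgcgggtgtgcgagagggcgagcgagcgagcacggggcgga
The fallen genes Hlf, Nr1d2 and Rora held no E-box in their windows. RefSeq windows were matched for 16 of 19 clock genes, and 5 of these 16 held an E-box, namely Per1, Cry1, Tef, Bhlhe41 and Ciart. Counted by window, 6 of the 21 clock gene windows held an E-box, against 6.02% of all 32851 windows of this length. The D-box letters TTANGTAA on either strand were in the window of Per3 alone, and in 2.06% of all windows. A match is a description of letters only.

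Among transcription factors of astrocytes more genes fell than rose. Of 32 tested, 6 fell (18.8%, against 10.2%) and 1 rose (3.12%). Rorb, a nuclear receptor, had 14.7, 19.5, 11.6 and 22.6 TPM at 18m, against 27.3, 28.6 and 36 TPM at P60. It fell without overlap (log2 change -0.84 ± 0.18 SE with adjusted p = 0.00438 by limma) and was called with the terms (-0.81 with adjusted p = 0.0303) and without 18m replicate 1 (-0.78 with adjusted p = 0.0165). The thyroid hormone receptor genes both fell. Thra averaged 32.5 ± 7.88 TPM at 18m and 61.7 ± 17.6 TPM at P60 (SD, n = 4 and n = 3). Thrb averaged 6.67 ± 1.81 TPM at 18m and 11.3 ± 1.27 TPM at P60 (SD, n = 4 and n = 3). Neither was called with the neuronal and myelin terms (-0.31 with adjusted p = 0.245 for Thra and -0.65 with adjusted p = 0.163 for Thrb). Of the 6 that fell, Rorb, Thra and Tcf7l2 were called without 18m replicate 1, and Rora, Thrb and Nfix were not. Nfix, a nuclear factor I gene of glial maturation, averaged 35.3 ± 5.02 TPM at 18m and 61.4 ± 20.3 TPM at P60 (SD, n = 4 and n = 3), and Tcf7l2, a Wnt pathway effector, averaged 16.1 ± 3.36 TPM at 18m and 26.5 ± 1.29 TPM at P60 (SD, n = 4 and n = 3) (log2 change -0.71 ± 0.17 SE with adjusted p = 0.00858 by limma).

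Olig2 was the transcription factor that rose. It is a basic helix-loop-helix factor best known from oligodendrocyte precursors, is also present in some astrocytes (chromosome 16, 91225457 to 91228677), and had 37.3, 64.5, 71.8 and 62.2 TPM at 18m, against 19.5, 16.6 and 32.8 TPM at P60. The lowest 18m value, in replicate 1, was above the highest P60 value (log2 change 1.34 ± 0.31 SE with adjusted p = 0.00638 by limma). Its neighbour Olig1 on the same chromosome (chromosome 16, 91269772 to 91271933) had 138, 269, 274 and 281 TPM at 18m, against 94.2, 76.2 and 134 TPM at P60, again with replicate 1 lowest and without overlap (log2 change 1.22 ± 0.25 SE with adjusted p = 0.00291 by limma). Both were called with the neuronal and myelin terms (1.2 with adjusted p = 0.0234 for Olig1 and 1.31 with adjusted p = 0.0396 for Olig2) and without 18m replicate 1. They were the 2 called genes among 10 oligodendrocyte precursor markers (20% rose, against 3.63% of all genes). The list mean of those markers was 3.68, 4.88, 5.13 and 5.16 at 18m, against 3.97, 4.20 and 4.81 at P60, in log2(TPM + 1), so that the ages overlapped. The part of precursor cells in the rise was not tested.

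Of 18 genes of progenitors and immature astroglia, 4 rose (22.2%, against 3.63% of all genes) and none fell. The share that rose was higher among abundant genes, at 5.75% for means of 20 to 100 TPM and 11.8% over 100 TPM. Igfbp2, an insulin-like growth factor binding protein, had 1262, 941, 1143 and 988 TPM at 18m, against 512, 499.7 and 461 TPM at P60, without overlap (log2 change 1.13 ± 0.26 SE with adjusted p = 0.00616 by limma). Hes1, a Notch effector that holds progenitors undifferentiated, averaged 77.4 ± 8.53 TPM at 18m and 56 ± 7.65 TPM at P60 (SD, n = 4 and n = 3) (log2 change 0.46 ± 0.14 SE with adjusted p = 0.0296 by limma). The others were Gas1 and Nrarp. None of the 4 was called with the neuronal and myelin terms, and without P60 replicate 1 a single one was.

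Metabolic genes changed gene by gene. Ldha encodes the lactate dehydrogenase subunit that favours lactate production (chromosome 7, 46841475 to 46855627), and had 786, 1024, 543 and 486 TPM at 18m, against 369, 344 and 361 TPM at P60. The 18m values split into a higher pair, replicates 1 and 2, and a lower pair, and all exceeded P60 (log2 change 0.92 ± 0.15 SE with adjusted p = 0.000706 by limma). The call held with the terms (0.95 with adjusted p = 0.00166) and without 18m replicate 1 (0.85 with adjusted p = 0.00373). Hk1, the hexokinase that starts glycolysis, averaged 40.3 ± 12.1 TPM at 18m and 68.5 ± 4.53 TPM at P60 (SD, n = 4 and n = 3) and fell (log2 change -0.81 ± 0.21 SE with adjusted p = 0.0105 by limma), as did Pygb, the brain glycogen phosphorylase (219 ± 44.8 TPM at 18m and 292 ± 20.4 TPM at P60, SD, n = 4 and n = 3). These 3 were the called genes among 25 of glycolysis, lactate and glycogen (4% rose and 8% fell, against 3.63% and 10.2% of all genes). Hk1 was not called with the neuronal and myelin terms (-0.65 with adjusted p = 0.0795) or without 18m replicate 1 (-0.55 with adjusted p = 0.0525). Pygb lost its call in the same 2 fits (-0.50 with adjusted p = 0.0735 and -0.29 with adjusted p = 0.197).

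Of 24 genes of fatty acid oxidation and ketone use, 4 fell (16.7%, against 10.2% of all genes) and none rose. Ppara, the nuclear receptor that switches on fatty acid oxidation, had 6.15, 10.7, 3.8 and 11.4 TPM at 18m, against 14, 16 and 15.8 TPM at P60. The ages did not overlap, with a wide spread at 18m (log2 change -0.95 ± 0.22 SE with adjusted p = 0.00603 by limma). Hadhb, a subunit of the mitochondrial trifunctional protein, averaged 273 ± 24.3 TPM at 18m and 386 ± 47.8 TPM at P60 (SD, n = 4 and n = 3), and Oxct1, the enzyme of ketone body use, averaged 228 ± 47.7 TPM at 18m and 296 ± 23.5 TPM at P60 (SD, n = 4 and n = 3). Acsl6, an acyl-CoA synthetase, averaged 272 ± 95.1 TPM at 18m and 468 ± 19.3 TPM at P60 (SD, n = 4 and n = 3) (log2 change -0.86 ± 0.26 SE with adjusted p = 0.0255 by limma). Ppara alone of these 4 was still called with the neuronal and myelin terms (-0.92 with adjusted p = 0.0371).

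Of 24 genes of cholesterol synthesis 3 rose (12.5%, against 3.63% of all genes) and none fell. Among all genes with a mean of 20 to 100 TPM 5.75% rose, and among those over 100 TPM 11.8% rose. Fdps, the farnesyl diphosphate synthase, averaged 309.9 ± 34.4 TPM at 18m and 209.5 ± 26.4 TPM at P60 (SD, n = 4 and n = 3) (log2 change 0.56 ± 0.17 SE with adjusted p = 0.0285 by limma), Mvk, mevalonate kinase, averaged 59.7 ± 5.47 TPM at 18m and 40.1 ± 4.72 TPM at P60 (SD, n = 4 and n = 3), and Tm7sf2, a sterol reductase, averaged 87.6 ± 15.7 TPM at 18m and 54.5 ± 5.71 TPM at P60 (SD, n = 4 and n = 3). None of the 24 was called with the neuronal and myelin terms, without 18m replicate 1 or without P60 replicate 1.

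Reactive genes did not pass the test. Gfap, the filament whose rise marks reactivity (chromosome 11, 102887336 to 102900912), had 582, 369.5, 447 and 257 TPM at 18m, against 317, 359 and 203 TPM at P60. The ages overlapped, with 18m replicate 1 highest and replicate 4 within the P60 range (95% interval -0.24 to 1.19, limma adjusted p = 0.389). Vim, vimentin, averaged 193 ± 42.2 TPM at 18m and 133 ± 16.1 TPM at P60 (SD, n = 4 and n = 3) and was not called (-0.03 to 1.08). Serpina3n, a protease inhibitor of reactive astrocytes, had 31.3, 33.4, 45.8 and 17.8 TPM at 18m, against 14.6, 47.8 and 14.9 TPM at P60, and P60 replicate 2 was the highest of the 7 libraries. With the covariate for genes at 0, Gfap was called higher (1.2 with adjusted p = 0.0346). Of 13 pan-reactive genes none was called in the fit without that covariate, although 1 was after median-of-ratios rescaling. In all, 10 had a positive fold change, and the median was 0.28, against -0.09 over all genes. Lcn2, lipocalin 2, averaged 7.28 ± 10.1 TPM at 18m and 0.622 ± 0.38 TPM at P60 (SD, n = 4 and n = 3), with 22.4 TPM in 18m replicate 1. Timp1, a protease inhibitor, averaged 5.02 ± 2.77 TPM at 18m and 1.85 ± 0.207 TPM at P60 (SD, n = 4 and n = 3), and Osmr, the oncostatin M receptor, averaged 8.74 ± 2.21 TPM at 18m and 5.84 ± 0.911 TPM at P60 (SD, n = 4 and n = 3). Neither was called.

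Fbln5 was the called gene among 11 of the neuroinflammatory reactive set. It encodes fibulin 5, an elastic fibre protein, and had 43.9, 52.5, 36.1 and 37.7 TPM at 18m, against 19.6, 15.7 and 14.1 TPM at P60. Every 18m library exceeded every P60 library (log2 change 1.31 ± 0.25 SE with adjusted p = 0.00177 by limma), also with the terms (1.28 with adjusted p = 0.00993) and without 18m replicate 1 (1.29 with adjusted p = 0.00682). Amigo2, an adhesion protein, averaged 18.7 ± 1.41 TPM at 18m and 13.1 ± 1.84 TPM at P60 (SD, n = 4 and n = 3) (log2 change 0.49 ± 0.18 SE with adjusted p = 0.0749 by limma) and Srgn, serglycin, averaged 77.5 ± 19.4 TPM at 18m and 41.1 ± 9.17 TPM at P60 (SD, n = 4 and n = 3). Neither was called. No gene of 10 in the ischaemia-type set was called.

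No complement gene was called among 18. C4b, a complement component frequently examined in ageing glia, had 37.1, 43.3, 47.4 and 46.3 TPM at 18m, against 38.4, 57.5 and 31.8 TPM at P60, and the ages overlapped (95% interval -0.35 to 0.49). C3, the central component, had 1.37, 3.15, 4.95 and 3.74 TPM at 18m, against 5.08, 1.85 and 1.38 TPM at P60, with the highest value in P60 replicate 1 (-0.41 to 0.89). Antigen presentation by class I likewise showed no call in 17 genes. B2m, the shared light chain, averaged 583 ± 95.9 TPM at 18m and 545 ± 211 TPM at P60 (SD, n = 4 and n = 3), H2-K1 averaged 296 ± 31.3 TPM at 18m and 302 ± 31.9 TPM at P60 (SD, n = 4 and n = 3) (-0.35 to 0.29) and H2-D1 averaged 272 ± 40.6 TPM at 18m and 231 ± 31.7 TPM at P60 (SD, n = 4 and n = 3). None of 29 interferon-stimulated genes was called, with a median of 0.10. Bst2, an antiviral membrane protein, came nearest (40.9 ± 6.56 TPM at 18m and 24 ± 9.13 TPM at P60, SD, n = 4 and n = 3, log2 change 0.79 ± 0.32 SE with adjusted p = 0.0948 by limma), and Cxcl10, a chemokine, averaged 5.77 ± 2.69 TPM at 18m and 4.61 ± 2.2 TPM at P60 (SD, n = 4 and n = 3). Of the 29, 6 were called lower with the neuronal and myelin terms.

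Class II genes, normally carried by macrophages and other antigen-presenting cells, showed 2 rises and 1 fall of 7. These are 28.6% and 14.3%, against 3.63% and 10.2% of all genes. H2-Ab1 had 27.5, 18.5, 19.8 and 14.97 TPM at 18m, against 6.43, 7.95 and 6.17 TPM at P60, and H2-Aa averaged 7.03 ± 1.02 TPM at 18m and 2.86 ± 0.713 TPM at P60 (SD, n = 4 and n = 3). Neither overlapped between the ages (log2 change 1.41 ± 0.46 SE with adjusted p = 0.0424 by limma for H2-Ab1 and log2 change 1.06 ± 0.36 SE with adjusted p = 0.0465 by limma for H2-Aa). H2-DMb2 fell (0.481 ± 0.465 TPM at 18m and 1.73 ± 0.35 TPM at P60, SD, n = 4 and n = 3). None of the 3 was called with the neuronal and myelin terms or without 18m replicate 1. Summed class II transcripts came to 49.8 to 83.1 TPM at 18m and 33.4 to 40.3 TPM at P60.

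Cell cycle genes did not separate the ages, of which P60 had been chosen as a non-proliferative one. The mean of 34 genes was 2.52 to 2.91 at 18m and 2.50 to 2.74 at P60 in log2(TPM + 1), and none was called. Without 18m replicate 1, 2 were called higher, among them the cyclin gene Ccnd1 (0.68 with adjusted p = 0.0392). Mki67, a marker of dividing cells, averaged 0.256 ± 0.0869 TPM at 18m and 0.344 ± 0.0318 TPM at P60 (SD, n = 4 and n = 3), and the mitotic kinase gene Aurkb averaged 3.39 ± 0.904 TPM at 18m and 2.97 ± 0.539 TPM at P60 (SD, n = 4 and n = 3) (-0.23 to 0.49). The tenascin C gene Tnc, a matrix gene of immature cells, averaged 3.12 ± 1.74 TPM at 18m and 3.76 ± 0.273 TPM at P60 (SD, n = 4 and n = 3). Of 16 CDK inhibitor and senescence-associated genes, 3 rose (18.8%, against 3.63% of all genes) and none fell. Cdkn2b, a CDK inhibitor, had 10.9, 8.09, 10.1 and 6.87 TPM at 18m, against 3.58, 3.52 and 4.75 TPM at P60 (log2 change 1.0 ± 0.33 SE with adjusted p = 0.0426 by limma), Trp53, the p53 gene, averaged 48.8 ± 4.25 TPM at 18m and 34.1 ± 2.52 TPM at P60 (SD, n = 4 and n = 3) (log2 change 0.50 ± 0.15 SE with adjusted p = 0.0237 by limma), and Igfbp3, a secreted binding protein, averaged 19.6 ± 9.95 TPM at 18m and 6.11 ± 0.851 TPM at P60 (SD, n = 4 and n = 3) (log2 change 1.41 ± 0.41 SE with adjusted p = 0.0233 by limma). No gene of this list was called with the neuronal and myelin terms or without P60 replicate 1. Igfbp5 averaged 14.6 ± 3.6 TPM at 18m and 23.6 ± 14.5 TPM at P60 (SD, n = 4 and n = 3) and was not called.

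Some genes of protein synthesis, folding and breakdown rose. Of 31 constitutive proteasome genes 8 rose (25.8%) and 1 fell (3.23%), with a median of 0.23. Among all genes with a mean over 100 TPM 11.8% rose and 4.51% fell. Psmd8, a lid subunit, averaged 249 ± 17.8 TPM at 18m and 201 ± 14.98 TPM at P60 (SD, n = 4 and n = 3) (log2 change 0.31 ± 0.07 SE with adjusted p = 0.00736 by limma), the core subunit gene Psma5 averaged 183 ± 19.4 TPM at 18m and 145 ± 6.73 TPM at P60 (SD, n = 4 and n = 3), and Psmb4, another core subunit, averaged 313 ± 13.9 TPM at 18m and 261 ± 11.1 TPM at P60 (SD, n = 4 and n = 3). The count depended on the setting, with 0 higher in the libraries of the 2 ages alone, 1 with the terms, 2 without P60 replicate 1 and 13 after median-of-ratios rescaling. Of 45 cytosolic ribosomal protein genes 5 rose and none fell. Their share of rises, 11.1%, was near the 11.8% of all genes with a mean over 100 TPM. Rpl6 had 242, 196, 211 and 196 TPM at 18m, against 158, 138 and 156 TPM at P60, without overlap (log2 change 0.48 ± 0.09 SE with adjusted p = 0.00191 by limma), and Rpl27 and Rpl7a rose too. With the terms 14 were higher, and with the covariate for genes at 0 none was, with a median of -0.02 for the list. Of 30 heat shock and unfolded protein response genes 4 rose (13.3%), namely Xbp1 and Atf4, transcription factors of the unfolded protein response, and Creld2 and Manf, secretory-pathway proteins induced by it. The 13.3% was near the 11.8% of all genes with a mean over 100 TPM, while 5.75% of those of 20 to 100 TPM rose. Manf averaged 203 ± 17.2 TPM at 18m and 125 ± 6.64 TPM at P60 (SD, n = 4 and n = 3) and Xbp1 138 ± 11.1 TPM at 18m and 97 ± 10.7 TPM at P60 (SD, n = 4 and n = 3). None of the list rose with the terms, and 1 gene did without 18m replicate 1.

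Transcripts of other cell types differed between the ages beside all of these groups. Of 18 neuronal markers 12 fell (66.7%, against 10.2%), with a median of -1.19. Their list mean was 2.03, 3.18, 2.56 and 2.82 at 18m, against 4.38, 3.74 and 3.86 at P60, so that the ages did not overlap. Camk2a, a kinase of excitatory neurons, had 0.266, 17.4, 3.56 and 15.01 TPM at 18m, against 163, 76.9 and 63.8 TPM at P60 (log2 change -3.87 ± 1.12 SE with adjusted p = 0.0235 by limma). Rbfox3, which encodes the neuronal splicing factor NeuN, averaged 2.86 ± 1.63 TPM at 18m and 19.9 ± 6.32 TPM at P60 (SD, n = 4 and n = 3) (log2 change -2.50 ± 0.47 SE with adjusted p = 0.00177 by limma). Summed neuronal markers came to 130.2 to 294 TPM at 18m and 549 to 1051 TPM at P60. Without 18m replicate 1, 6 of the 18 were called lower, and without P60 replicate 1, 5 were.

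Myelin genes varied widely within 18m, where the list mean ran from 1.92 to 5.27, against 4.60 to 5.05 at P60. Mbp, myelin basic protein, had 1.3, 179, 214 and 578 TPM at 18m, against 1017, 931 and 756 TPM at P60, and was not called although the ages did not overlap (log2 change -3.40 ± 1.67 SE with adjusted p = 0.179 by limma). None of 14 oligodendrocyte genes was called. By list mean, microglial genes were low at both ages, although the complement gene C1qb averaged 15.1 TPM at 18m and 32.5 TPM at P60. Siglech fell, with 0.141, 1.3, 0.378 and 0.425 TPM at 18m, against 6.33, 4.11 and 4.61 TPM at P60 (log2 change -1.98 ± 0.35 SE with adjusted p = 0.000956 by limma), and Trem2 fell (1.54 ± 1.07 TPM at 18m and 4.78 ± 1.4 TPM at P60, SD, n = 4 and n = 3), while Cx3cr1 averaged 0.741 ± 0.507 TPM at 18m and 2.22 ± 0.307 TPM at P60 (SD, n = 4 and n = 3) and was not called. Of 20 microglial and macrophage genes these 2 fell (10%, against 10.2% of all genes). In all, 17 of the 20 had a negative fold change, with a median of -0.55 against -0.09 over all genes. The list mean was 2.05 to 3.03 at 18m and 2.97 to 3.19 at P60, so that the ages overlapped. Trem2 was not called without 18m replicate 1 (-0.94 with adjusted p = 0.107) or with the neuronal and myelin terms (-0.35 with adjusted p = 0.506), whereas Siglech was called in both.

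Endothelial genes lay on the higher side, 13 of 15 with a positive fold change and a median of 0.79. Egfl7, an endothelial secreted protein, had 199.96, 133, 142 and 77.2 TPM at 18m, against 45.3, 40.2 and 67.4 TPM at P60 (log2 change 1.38 ± 0.44 SE with adjusted p = 0.0369 by limma), and Vwf, von Willebrand factor, averaged 7.9 ± 2.9 TPM at 18m and 2.99 ± 0.791 TPM at P60 (SD, n = 4 and n = 3) (log2 change 1.12 ± 0.36 SE with adjusted p = 0.0373 by limma). They were the 2 that rose (13.3%, against 3.63% of all genes). Neither was called without 18m replicate 1, which had the highest endothelial mean (1.17 with adjusted p = 0.118 for Egfl7 and 0.94 with adjusted p = 0.123 for Vwf), or with the neuronal and myelin terms (0.58 with adjusted p = 0.468 and 0.42 with adjusted p = 0.506). Cldn5, the tight junction protein claudin 5, had 462, 272, 253 and 149.9 TPM at 18m, against 61.5, 180.5 and 96 TPM at P60, with overlap, and was not called. The endothelial list mean was 5.82, 5.51, 5.40 and 4.74 at 18m, against 4.38, 4.58 and 5.08 at P60. Erythroid genes had a median of 1.5, none called of 8. Hbb-bs, an adult beta globin whose reads may be shared with the near-identical Hbb-bt, had 12693, 9306, 2959.6 and 3462 TPM at 18m, against 1209, 1548 and 3161 TPM at P60. No gene of the pericyte, fibroblast or lymphocyte lists was called. Of 13 ependymal genes 1 fell (7.69%), and of 10 choroid plexus genes 2 fell (20%), against 10.2% of all genes. All 13 ependymal genes had a negative fold change (median -0.79), as did all 10 of choroid plexus (median -0.53). The list means of both overlapped between the ages.

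**Figure D2:**
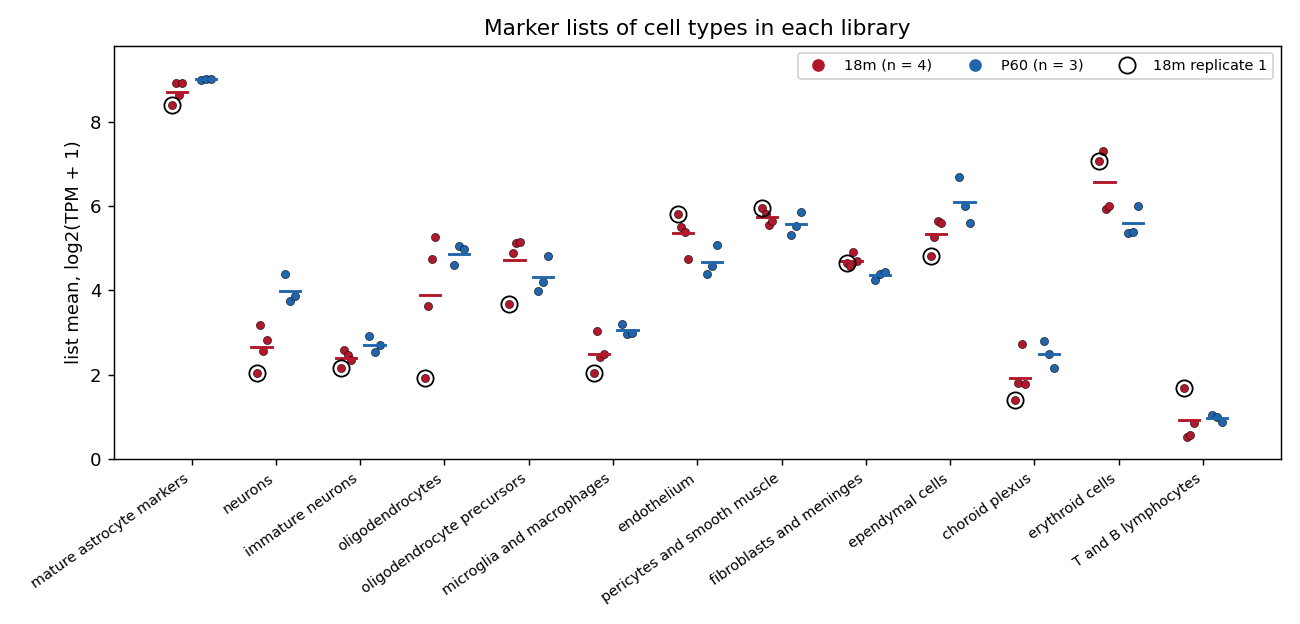
Mean log2(TPM + 1) of the marker lists of 13 cell types in each library of 18m (red) and P60 (blue). Points are libraries, short lines are means and open circles mark 18m replicate 1. Neuronal means do not overlap between the ages (2.03 to 3.18 at 18m and 3.74 to 4.38 at P60), and 18m replicate 1 has the lowest oligodendrocyte mean, 1.92.

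The 12 largest rises, among called genes without overlap that averaged at least 5 TPM in the higher age, were Scgb3a1, Ctla2a, Ctsw, Ecscr, Pglyrp1, Slc38a5, Tubb6, Ankrd37, Ppic, Il2rg, Emid1 and Adm. Ctsw, which encodes the protease cathepsin W, had 19.8, 4.25, 4.16 and 3.98 TPM at 18m, against 0.418, 0.616 and 0.635 TPM at P60. The lymphocyte list mean was 1.69 in 18m replicate 1, 0.526 to 0.858 in the other 18m libraries and 0.878 to 1.05 at P60. Any part of other cells in the Ctsw values was not tested. Replicate 1 was far above the other 18m libraries, which still lay above P60 (log2 change 2.23 ± 0.36 SE with adjusted p = 0.000548 by limma). Ecscr, an endothelial surface protein (chromosome 18, 35713086 to 35722356), had 112, 50.03, 32.4 and 17.7 TPM at 18m, against 8.59, 8.33 and 10.6 TPM at P60, in the order of the endothelial means within 18m (log2 change 2.10 ± 0.52 SE with adjusted p = 0.0101 by limma). Tubb6, a beta tubulin, had 65.2, 59.8, 17.7 and 17.6 TPM at 18m, against 8.39, 8.41 and 8.92 TPM at P60, with no overlap (log2 change 1.85 ± 0.32 SE with adjusted p = 0.000895 by limma). Adm, the vasoactive peptide adrenomedullin, averaged 40.3 ± 21.6 TPM at 18m and 11.3 ± 2.58 TPM at P60 (SD, n = 4 and n = 3). Ctla2a averaged 145 ± 105 TPM at 18m and 25.4 ± 11.3 TPM at P60 (SD, n = 4 and n = 3), and its reads may be shared with its close copy Ctla2b. Of these 12, Ctsw and Tubb6 were called with the neuronal and myelin terms. With an endothelial term beside them, chosen after the data were seen, all but Slc38a5, Ppic and Emid1 were called. The log2 fold change there was 1.52 for Ctla2a and 1.08 for Ecscr. Scgb3a1, Ctla2a, Pglyrp1, Slc38a5 and Il2rg were not called without 18m replicate 1.

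The 12 largest falls by the same rule were Hpcal4, Nrsn1, Gng13, Camk2a, Rasgef1a, Slc17a7, Psd, Nefl, Exosc6, Fbxl16, Ddn and Zfp365. Hpcal4, a neuronal calcium sensor, had 0.685, 38.7, 12.1 and 36.9 TPM at 18m, against 497, 205 and 196 TPM at P60 (log2 change -4.34 ± 1.30 SE with adjusted p = 0.029 by limma). Slc17a7, the vesicular glutamate transporter of cortical neurons, averaged 7.9 ± 7.0 TPM at 18m and 68 ± 31.8 TPM at P60 (SD, n = 4 and n = 3), and Nefl, a neurofilament subunit, averaged 5.93 ± 4.75 TPM at 18m and 52.2 ± 23.7 TPM at P60 (SD, n = 4 and n = 3). Exosc6 and Rasgef1a (-0.73 with adjusted p = 0.0449) stayed called with the neuronal and myelin terms, and the other 10 were not. Slc17a7, Nefl and Camk2a are members of the list whose mean made the neuronal term, so that their loss is partly fixed by it. Without 18m replicate 1, Exosc6 and Rasgef1a were also the 2 still called.

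Exosc6, a subunit of the RNA exosome, was listed at 0 in all 4 libraries of 18m, against 7.79, 7.88 and 7.22 TPM at P60, and no fold is given. It was also listed at 0 in every library of 3m, 6m and 12m, so that the difference is not particular to 18m. The annotated gene (chromosome 8, 111056339 to 111057664, GRCm38) lies inside the interval of Aars, and how reads were divided between the overlapping genes is not given in the sources used here. In all, 47 genes were listed at 0 in every 18m library with at least 0.5 TPM in every P60 library, 22 of them chemoreceptors, and 2 genes showed the reverse.

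**Figure D3:**
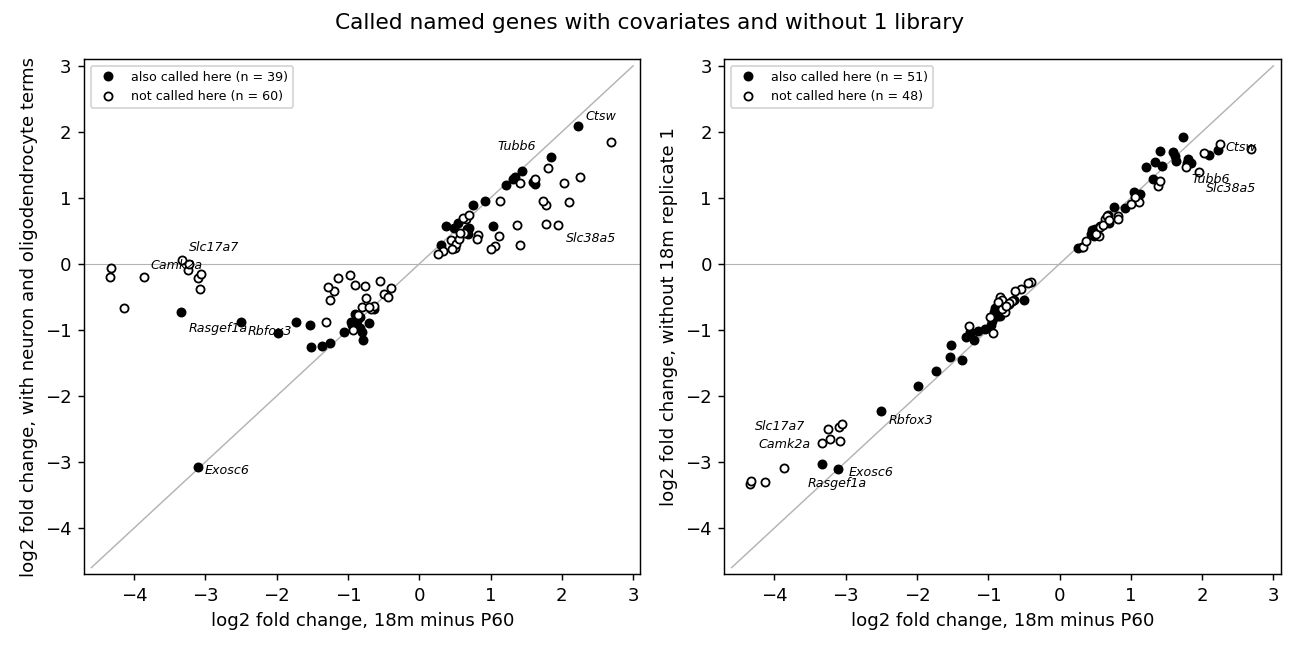
Log2 fold changes, 18m minus P60, of the 99 named genes that were called (x axes) against the same value with neuronal and myelin terms (left) and without 18m replicate 1 (right). Filled points were also called there, 39 on the left and 51 on the right. On the left the neuronal genes at -3 to -4 move to near 0, while Exosc6 stays on the line of equal values. Of these neuronal genes, Camk2a, Slc17a7 and Nefl are members of the list behind the neuronal term.

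Across all 19 alternatives other than a minimum fold, 117 genes were called in the same direction, 33 higher and 84 lower (genes under the stricter filter of 5 TPM were not asked to pass it). The genes named in this and the next paragraph were picked after their values were seen. Htra3, a secreted serine protease, had 43.2, 40.2, 49.5 and 46.8 TPM at 18m, against 13.8, 12.2 and 15.9 TPM at P60, with both ages in narrow ranges (log2 change 1.62 ± 0.28 SE with adjusted p = 0.000895 by limma). Tubb2a, a beta tubulin, averaged 1319 ± 244 TPM at 18m and 775 ± 118 TPM at P60 (SD, n = 4 and n = 3). Pfn1, profilin 1, which drives actin assembly, had 966, 810.3, 755 and 769 TPM at 18m, against 488, 504 and 531 TPM at P60 (log2 change 0.69 ± 0.11 SE with adjusted p = 0.000548 by limma). Ppib, an endoplasmic reticulum peptidyl-prolyl isomerase, had 807, 721, 722 and 694 TPM at 18m, against 446, 446 and 487 TPM at P60 (log2 change 0.68 ± 0.11 SE with adjusted p = 0.000502 by limma), and Erp29, a chaperone of the same compartment, averaged 162 ± 19.2 TPM at 18m and 100.5 ± 4.79 TPM at P60 (SD, n = 4 and n = 3). Litaf, an endosomal membrane protein, averaged 40.7 ± 6.78 TPM at 18m and 19.3 ± 3.8 TPM at P60 (SD, n = 4 and n = 3). Ldha, Fbln5, Olig1, Olig2 and Ctsw were also among the 33. So were Tmem254b, which averaged 58.3 ± 12 TPM at 18m and 18.4 ± 2.05 TPM at P60 (SD, n = 4 and n = 3), and Tmem254c, which averaged 94.6 ± 7.04 TPM at 18m and 34.3 ± 5.4 TPM at P60 (SD, n = 4 and n = 3). Reads of these may be shared between near-identical copies.

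Among the 84 lower genes were Thbs4, Hlf, Gria1, Rorb, Rbfox3 and Siglech. Adcy2, an adenylate cyclase that makes cyclic AMP, had 21.7, 36.3, 50.2 and 34.6 TPM at 18m, against 78.3, 86.2 and 84.1 TPM at P60, with replicate 1 lowest and no overlap (log2 change -1.25 ± 0.24 SE with adjusted p = 0.00203 by limma). Aldh1a1, a retinaldehyde dehydrogenase, had 63.3, 70.7, 79.4 and 64.3 TPM at 18m, against 125, 154 and 129 TPM at P60 (log2 change -0.96 ± 0.19 SE with adjusted p = 0.00228 by limma). Hdac4, a class II histone deacetylase, averaged 9.2 ± 1.13 TPM at 18m and 17.6 ± 1.55 TPM at P60 (SD, n = 4 and n = 3), and Rxra, the shared partner of many nuclear receptors, averaged 3.49 ± 1.15 TPM at 18m and 7.25 ± 0.454 TPM at P60 (SD, n = 4 and n = 3). Gpd2, the mitochondrial glycerol phosphate dehydrogenase, averaged 56.6 ± 8.07 TPM at 18m and 88.3 ± 6.74 TPM at P60 (SD, n = 4 and n = 3) (log2 change -0.64 ± 0.14 SE with adjusted p = 0.00438 by limma). Atp2b2, a plasma membrane calcium pump abundant in neurons, averaged 4.29 ± 0.88 TPM at 18m and 14.2 ± 1.34 TPM at P60 (SD, n = 4 and n = 3), and Map1b, a microtubule protein of neurons, averaged 6.55 ± 2.45 TPM at 18m and 23.3 ± 3.86 TPM at P60 (SD, n = 4 and n = 3).

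**Figure D4:**
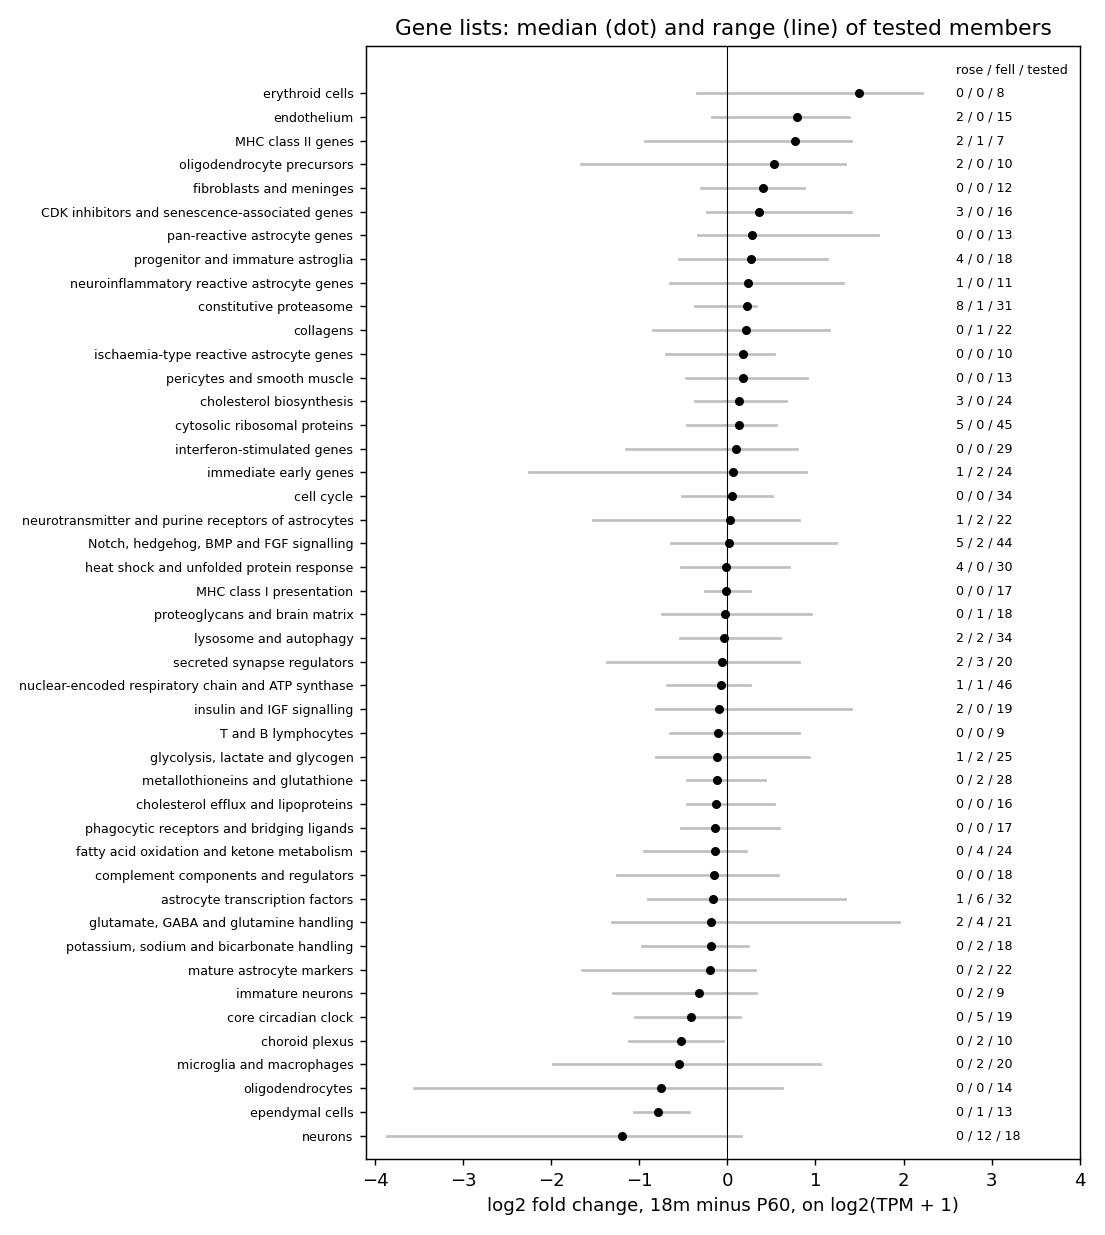
Log2 fold change, 18m minus P60, of 45 gene lists. Dots are medians and lines run over the tested members, with the numbers that rose, fell and were tested at the right. Neurons have the lowest median (-1.19, 12 of 18 fell) and erythroid genes the highest (1.5, none of 8 called).

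The other ages place these values. Slc1a2 averaged 211 TPM at P7, 399 TPM at P60, 432 TPM at 3m, 437 TPM at 6m, 433 TPM at 12m and 236 TPM at 18m. By mean, the 18m level was thus near that of P7, and the ages between lay higher. Single libraries varied, and 6m replicate 5 had 208 TPM of Slc1a2, against 325 to 644 TPM in the other libraries of 6m. Thbs4 averaged 8.3 TPM at P7, 20.6 TPM at P60, 41.2 TPM at 3m, 23.3 TPM at 12m and 7.43 TPM at 18m. Hlf averaged 19.6, 35.7, 35.8, 31.4 and 16.7 TPM at those 5 ages, and Gria1 5.18, 16, 12.2, 13.2 and 5.27 TPM. By mean, P60 was the lowest of the 9 ages for Ldha, Olig2 and Pfn1. The same held for each of the 12 largest rises and for Olig1, Fbln5, Htra3 and Igfbp2, whereas Ppib and Rpl6 were lowest at P21. The endothelial list mean was also lowest at P60, at 4.68, against 5.24 to 5.98 at the other ages. Ldha averaged 776, 358, 555, 545 and 709.7 TPM at P7, P60, 3m, 12m and 18m, the ages also used for the next genes. Olig2 averaged 74.9, 23, 30.5, 38.1 and 58.9 TPM. Pfn1 averaged 957, 508, 609, 544 and 825 TPM.

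The number of genes at 0 was high at P7 and P14 (4522 to 4819) as at 18m, and also in 12m replicates 1 and 2 (4556 and 4532), while 12m replicate 3 listed 1615. In those 2 libraries of 12m Slc1a2 was at 435 and 500.0 TPM, Thbs4 at 19.8 and 26.6, Hlf at 32.1 and 26.1, Pfn1 at 487 and 553 and Olig2 at 34.4 and 42.8. In 6m replicate 5, with 1704 genes at 0, several genes were nearer the 18m means than those of P60. These were Slc1a2 (208 TPM), Hlf (17.4), Gria1 (7.33) and Pfn1 (822.5), whereas Thbs4 (19.7) and Olig2 (32.2) were nearer P60. Across the 14590 genes tested, each 18m library had its highest mean correlation with the libraries of P14 (r of 0.972 to 0.987 over 16 pairs), against 0.941 to 0.98 with those of P60 over 12 pairs. These correlations are across genes, which are not independent, and share expression level and the cell types carried along.

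**Figure D5:**
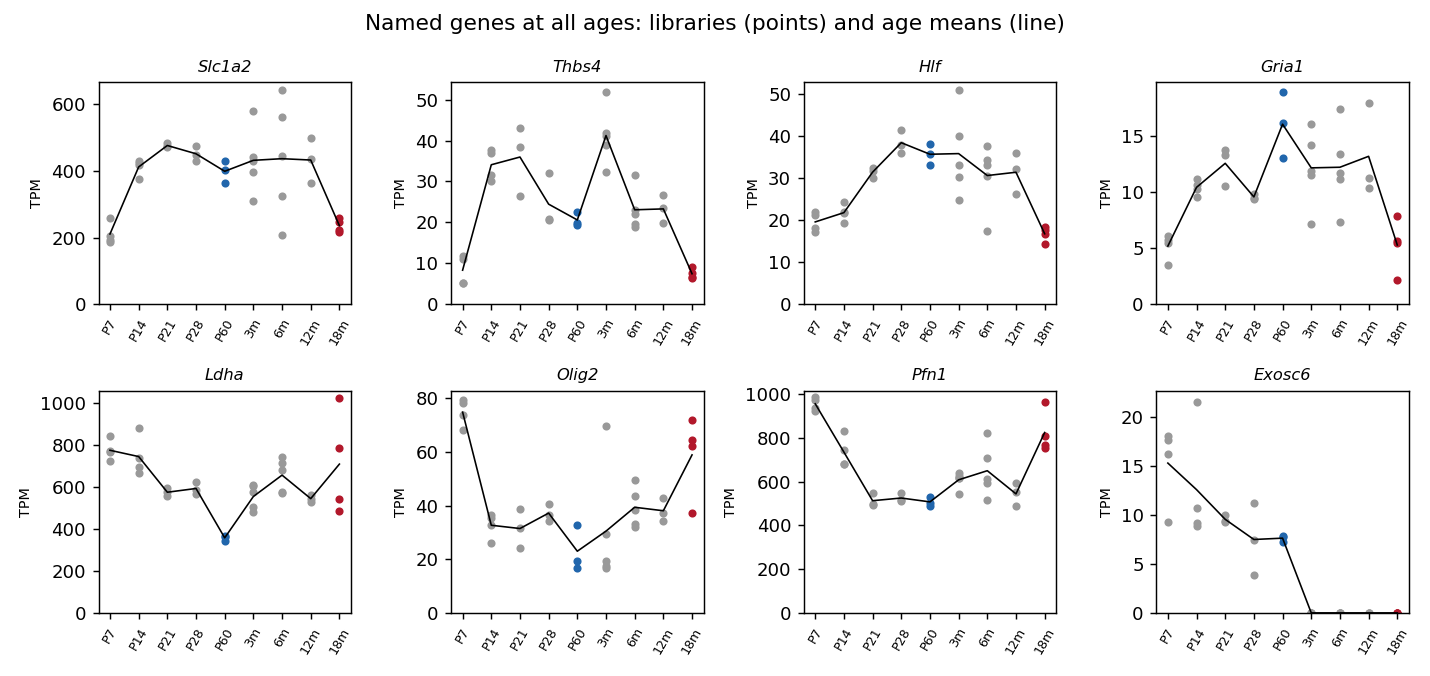
TPM of 8 named genes at all 9 ages, with libraries as points (18m red, P60 blue, other ages grey) and age means as a line. Slc1a2, Thbs4, Hlf and Gria1 are lower at 18m than at P60 and close to their P7 level, Ldha, Olig2 and Pfn1 are higher at 18m than at P60, and Exosc6 is listed at 0 from 3m on.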

How the data were processed

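RNA of 34 libraries of magnetically isolated cortical astrocytes at 9 ages was measured, 7 of them compared here. The authors deposited TPM per gene, with the same sum in each library. Per the submitters' processing notes, the tools were DESeq2 1.36.0, RSEM 1.2.28, STAR 2.7.1a and Trim Galore 0.6.4 and the build mm10, with no roles stated. TPM keep no depth, so read depth per library is unknown and no counting interval is given, and a low gene listed at 0 may have gone undetected.

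A gene was tested if 3 or more of the 34 libraries reached 1 TPM (14590 of 20613 genes). Values were taken as log2(TPM + 1), which understates the change of low genes, and were fitted with limma 3.58.1 (R 4.3.3, trend and robust, 1 mean per age, all 34 libraries, 25 residual degrees of freedom). The contrast was 18m minus P60, with Benjamini-Hochberg adjustment over all genes tested and calls at an adjusted p under 0.05. Tests are two-sided, errors are standard errors (SE), and intervals are 95% intervals of the fitted difference. Alternatives changed the pseudocount, filter, scaling, libraries fitted, weights or covariates, or left out libraries, and the terms for other cell types are mean levels of their marker lists. Replicate numbers did not pair the libraries. Gene positions are those of GENCODE vM21 (GRCm38), matched by gene ID, and promoter windows are RefSeq's.

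Genes were named by rule: the 12 largest rises and falls (as defined in the text, without predicted gene models), up to 3 genes of smallest p in each list described, and 31 fixed genes. Htra3, Tmem254b, Tmem254c, Litaf, Tubb2a, Pfn1, Ppib, Erp29, Adcy2, Aldh1a1, Hdac4, Atp2b2, Map1b, Rxra, Gpd2, Bhlhe41, Rora, Thrb, Nfix, Tcf7l2, Igfbp2, Hes1, Manf and Acsl6 were chosen after their values were seen, as were genes named without values. The compared ages and the gene lists were chosen with earlier results of these data known. Some genes covered by these rules are not reported here.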

Additional observations from a re-analysis of the deposited data

Results flagged for a closer look

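In 16 of 200 groups of 4 libraries at 18m, a single library lay so far from the other 3 that its gap, as a share of the whole range, exceeded the 95% critical value of Dixon's test. Chance gives about 1 in 20. No explanation was tested.

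In 18m replicate 1, Ctsw was the highest by a gap of 0.963 of the range, at 4.38 in log2(TPM + 1), against 2.32 to 2.39 in the other 18m libraries. The same library was the lowest for Olig1 (0.94), Hk1 (0.956), Abat (0.878), Igfbp5 (0.874), Bpgm (0.867) and Tnc (0.86). Olig1 stood at 7.11 there, against 8.08 to 8.14 in the other 18m libraries. Replicate 1 was also the lowest in 5 list means, those of phagocytic receptors (0.93), insulin and IGF signalling (0.872), Notch, hedgehog, BMP and FGF signalling (0.868), lysosome and autophagy (0.846) and glutamate, GABA and glutamine handling (0.831).

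Other libraries stood apart in 4 cases. 18m replicate 2 was the highest for Itgam, a microglial integrin (0.924), at 0.489, against 0.171 to 0.195. 18m replicate 3 was the highest for Atf4 (0.843) and for the mean of interferon-stimulated genes (0.837), at 4.20, against 3.72 to 3.80. 18m replicate 4 was the lowest for H2-Aa (0.866).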

How the results depend on the processing

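The fall of more genes than rose held under all alternatives except quantile normalization (1047 higher, 953 lower), which moved the median change of all genes to 0.04, against -0.09 without it. Numbers of calls moved more, against 529 higher and 1481 lower. Median-of-ratios rescaling gave 1022 higher, array weights 1238 higher of 3106, and a filter of 5 TPM 862 lower. The libraries of the 2 ages fitted alone gave 1151 calls (307 higher, 844 lower), and a fold of at least 2 gave 610 (73 higher, 537 lower). The covariate for genes at 0 gave 1027 (416 higher, 611 lower). Terms for neurons and myelin gave 1031 (119 higher, 912 lower), and an endothelial term beside them 1229 (185 higher, 1044 lower). Without both replicates 1 there were 443 (131 higher, 312 lower). That choice and the endothelial term were made after seeing the data. Leaving out 1 library gave 927 to 2020 calls, 186 to 468 higher and 634 to 1552 lower, with medians of -0.13 to -0.01. The lowest counts were 927 without P60 replicate 1, 1056 without 18m replicate 1, 1060 without P60 replicate 2 and 1216 without P60 replicate 3. Causes were not tested.

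A replicate block gave 2360 calls (507 higher, 1853 lower). Same-numbered libraries did not deviate together (correlations of -0.17, -0.035 and -0.141), so the numbers do not pair them.

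Among the values of named genes under the alternatives, 2389 kept direction and side of the threshold, 535 lost and 45 gained a call, and 62 turned, Slc17a7 being the only called gene to do so. With the terms for neurons and myelin, and with an endothelial term beside them, the reversed log2 changes were Slc17a7 0.0599 and 0.0522, Mobp 0.58 and 0.61, Mbp 0.68 and 0.67, Bcas1 0.0619 and 0.0569, C1qb 0.15 and 0.13, Psme1 -0.20 and -0.17, Vim -0.15 and -0.14, Glul 0.21 and 0.20, Aldoc 0.40 and 0.40, Kcnj10 0.0338 and 0.0236, C4b -0.0866 and -0.12, Serpina3n -0.0994 and -0.11, Cxcl10 -0.26 and -0.26, B2m -0.0864 and -0.0505, H2-D1 -0.38 and -0.32 and Cx3cr1 0.10 and 0.11. With the first of these models alone, Slc1a3 was at 0.00257 and Aurkb was at -0.013. Slc17a7, Mobp and Mbp are members of the lists whose means made the neuronal and myelin terms, so that their reversals are partly fixed by these terms. After median-of-ratios rescaling, Slc1a3 was at 0.0285, Aqp4 was at 0.0502 and H2-K1 was at 0.0534. After quantile normalization, Kcnj10 was at 0.0351 and Mki67 was at 0.29. With array weights, Slc1a3 was at 0.0541, Kcnj10 was at 0.00300 and B2m was at -0.0484. With the covariate for genes at 0, Aqp4 was at 0.21, H2-K1 was at 0.0441, Mki67 was at 0.0505, Tnc was at 0.62 and Ddx3y was at 0.10. Without both replicates 1, Slc1a3 was at 0.0439, Aqp4 was at 0.0667, Kcnj10 was at 0.13 and Tnc was at 0.0359. With single libraries left out, the changes that turned ranged -0.11 to 0.0568 for Slc1a3, -0.18 to 0.11 for Aqp4, -0.21 to 0.0424 for Kcnj10, -0.12 to 0.30 for C4b, -0.0299 to 0.65 for C3, -0.0814 to 0.53 for Cxcl10, -0.14 to 0.44 for B2m, -0.11 to 0.0456 for H2-K1 and -0.54 to 0.061 for Tnc.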

Other observations

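Growth factor signalling showed single changes. Of 44 genes of Notch, hedgehog, BMP and FGF signalling, 5 rose (11.4%, against 3.63% of all genes) and 2 fell (4.55%, against 10.2%), with a median of 0.02. Of 19 genes of insulin and IGF signalling, 2 rose (10.5%, against 3.63%) and none fell, with a median of -0.10. Phagocytic receptors and their bridging ligands, through which astrocytes clear synapses and debris, showed no call in 17 genes, and 14 of them had a negative change. Lysosome and autophagy genes showed 2 rises and 2 falls of 34 (5.88% each). Metallothionein and glutathione genes showed 2 falls of 28 (7.14%). Immediate early genes, which respond to stimulation and tissue handling, showed 1 rise (4.17%) and 2 falls (8.33%) of 24. Of 46 nuclear-encoded respiratory chain genes 1 rose and 1 fell (2.17% each). Of 16 genes of cholesterol efflux and lipoproteins none was called, with a median of -0.13. Brain matrix proteoglycans and collagens showed 1 fall each, of 18 and of 22 genes (5.56% and 4.55%). Over all genes 3.63% rose and 10.2% fell.

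Ddx3y, a Y-linked gene present in males, averaged 30.8 TPM at 18m and 33.6 TPM at P60, in accord with the male label of both ages.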
